A study of Mus musculus with 2 samples.

Results

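Macrophage identity and scavenger genes were followed in mouse bone marrow cultures after siRNA against lnc-C/EBPβ, a long non-coding RNA. The set held 9 genes, namely Maf, Csf1r, Adgre1, Cd68, Mrc1, Msr1, Cd163, Mertk and Apoe, of 18193 genes that the array read with at least 1 probe set of a single gene symbol. All 9 were found, through 19 of the 45037 probe sets. They were picked on the difference between these same arrays, for holding genes that were lower beside genes that stayed level, so every value of that difference below is a description and not a test.

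Bone marrow cells of C57BL/6 mice received either silncMDSC, an siRNA against the RNA that the labels call lncMDSC, or a control siRNA. Both cultures were then grown for 4 days under GM-CSF plus IL-6 to yield myeloid-derived suppressor cells (MDSCs), immature myeloid cells that restrain T cells. Total RNA was read on an Affymetrix mouse genome array. There was 1 array for silncMDSC and 1 for control siRNA, so no spread between replicates is known and no p can be given. Neither the age of the mice nor the number pooled is given in the sources used here, and the level of the targeted RNA was not analysed here.

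Macrophages arise from monocytes under the growth factor CSF1, which acts through the receptor Csf1r. The transcription factor Maf helps to end the division of these cells and to switch on late macrophage genes. Mature macrophages clear their surroundings with scavenger receptors. Mrc1 binds mannose-bearing glycans, Msr1 binds modified lipoproteins and bacterial products, and Cd163 takes up haemoglobin bound to haptoglobin. Mertk is a receptor tyrosine kinase that recognises dying cells through the bridging proteins Gas6 and Pros1, and Apoe carries lipids out of the cell. Adgre1 encodes F4/80, the surface protein by which mouse macrophages are usually sorted, and Cd68 is a glycoprotein of their lysosomes.

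The genes separated into a lower group and a level group. Maf, Mrc1, Msr1, Mertk and Apoe were between 1.61-fold and 1.91-fold lower in silncMDSC, while Csf1r, Adgre1 and Cd68 were at most 1.08-fold from control siRNA, each read on its brightest probe set. Cd163 was dim on both arrays. A gene was counted when at least 1 of its values reached 78.4, the median intensity of all probe sets of both arrays, called the floor here. Of the 8 genes that reached it, 5 were at least 1.5-fold lower, 0 were at least 1.5-fold higher and 3 lay between. In the full set of 11920 genes that reached the floor, 1.42% were lower by this measure and 0.948% higher. Because the set was chosen on this difference, nothing is read from that contrast. The 8 genes had a median log2 difference, silncMDSC minus control siRNA, of -0.77, beside a median of -0.002 and a robust SD (scaled median absolute deviation) of 0.176 over all genes above the floor. The gap between the gene of the lower group nearest to 0 (Mertk, -0.69) and the level gene nearest to it (Cd68, -0.11) was 0.57. The lower group itself spread over 0.25. The choice of the set and the cut at 1.5-fold both favour such a gap, so nothing is read from it.

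**Figure D1:**
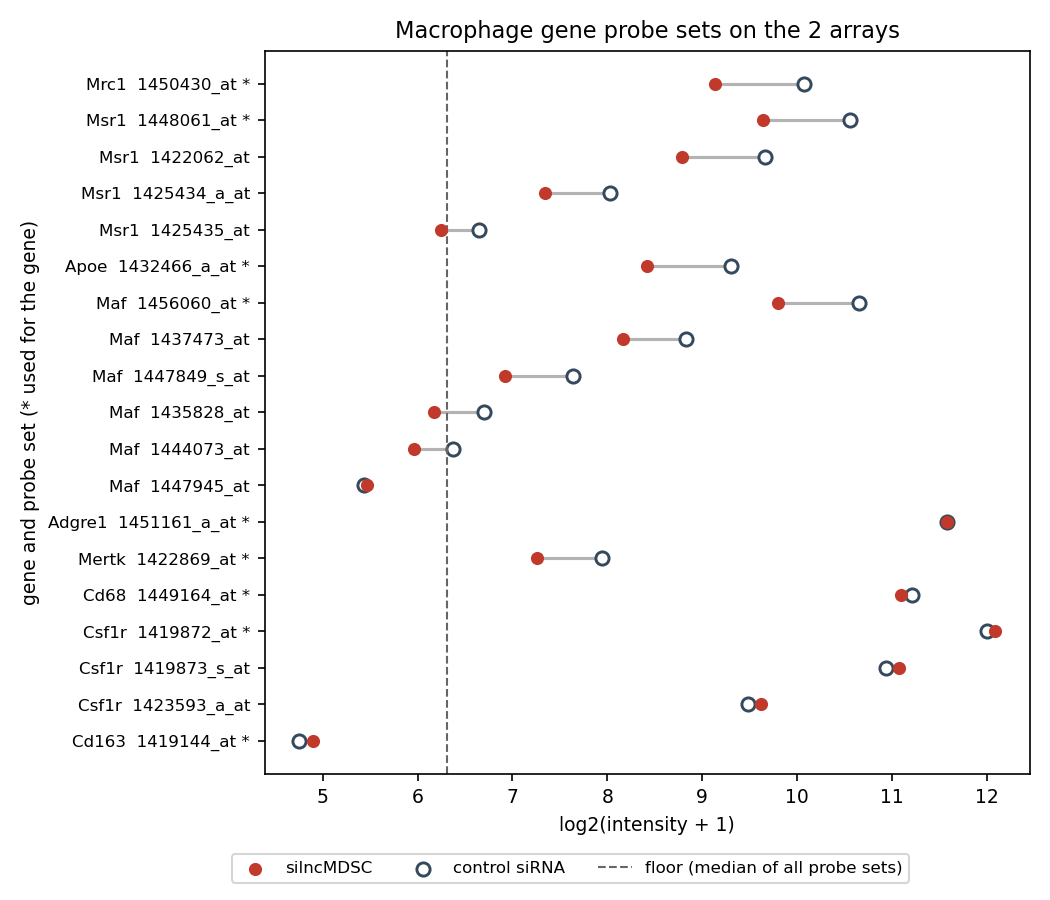
Each row is 1 probe set of the 9 genes, with log2(intensity + 1) on the x axis for the silncMDSC array (red) and the control siRNA array (open), and the dashed line at the floor. Mrc1, Apoe, Mertk, all 4 Msr1 probe sets and 5 of 6 Maf probe sets lie lower in silncMDSC, while Adgre1, Cd68 and Csf1r nearly coincide.

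The transcription factor Maf was read by 6 probe sets. The brightest, 1456060_at, had an intensity of 893 in silncMDSC and 1613 in control siRNA, 1.81-fold lower. Probe set 1437473_at had 286 in silncMDSC and 454 in control siRNA (1.59-fold lower), and 1447849_s_at had 119.98 and 197.52, in the same order (1.64-fold lower). These 3 probe sets were lower by similar factors although their brightness differed widely. The other 3 were dim. Probe sets 1435828_at, with 71.0 in silncMDSC and 103 in control siRNA, and 1444073_at, with 61.4 and 82.0 in the same order, reached the floor only on the control array and were 1.45-fold and 1.33-fold lower. Probe set 1447945_at was below the floor on both arrays, with 43.25 in silncMDSC and 42.15 in control siRNA, a log2 difference of 0.04. Probe sets of 1 gene on 1 array share the sample and are not replicates.

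Csf1r, the receptor through which macrophages survive and divide, differed little and in the opposite direction. Its probe set 1419872_at had 4347 in silncMDSC and 4088 in control siRNA, 1.06-fold higher. The remaining 2 probe sets had 2161 against 1965 and 789 against 715, silncMDSC against control siRNA each time (both 1.10-fold higher). All 3 differences, from 0.09 to 0.14 on the log2 scale, were on the same side and smaller than the robust SD of all genes.

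Adgre1 was the most even of the set, with 3067.5 in silncMDSC and 3070.1 in control siRNA, a log2 difference of -0.001. Cd68 had 2193 in silncMDSC and 2375 in control siRNA, 1.08-fold lower. Both were read by 1 probe set each. The identity genes Csf1r, Adgre1 and Cd68 were thus level on these arrays while the genes below, also carried by macrophages, were lower. In RNA from a whole culture, fewer cells of a type and less RNA per cell cannot be told apart.

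The mannose receptor Mrc1 had 562 in silncMDSC and 1074 in control siRNA, 1.91-fold lower. It was the gene farthest from control in the set and stood at rank 22 from the lowest among the 11920 genes. A single probe set reads it here, so no second reading stands beside it.

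Msr1, the class A scavenger receptor, was read by 4 probe sets, all lower in silncMDSC. Probe set 1448061_at had 799 in silncMDSC and 1505 in control siRNA (1.88-fold lower). Probe set 1422062_at had 441 in silncMDSC and 809 in control siRNA (1.84-fold lower). The dimmer 1425434_a_at had 161 in silncMDSC and 259.95 in control siRNA (1.61-fold lower), and 1425435_at, at 75.2 and 99.2 in the same order, was 1.32-fold lower and below the floor in silncMDSC. As for Maf, the dimmest probe sets showed the smallest folds. Cd163, the third scavenger receptor, had 28.9 in silncMDSC and 26.0 in control siRNA, both below the floor, so neither a level nor a difference can be read for it.

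Mertk had 152 in silncMDSC and 246 in control siRNA, 1.61-fold lower and the gene of the lower group closest to control. The lipid carrier Apoe had 341 in silncMDSC and 629 in control siRNA, 1.84-fold lower. Each was read by 1 probe set. Over the 5 genes of the lower group, 12 of 13 probe sets were above the floor and 9 of them at least 1.5-fold lower, where 1.46% of the 19739 named probe sets above the floor were. The 3 that did not pass 1.5-fold were the 2 dim Maf probe sets and the dimmest of Msr1. At the 2-fold threshold named in the methods, 0 of the 8 genes were lower, and 0.134% of all genes above the floor were.

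**Figure D2:**
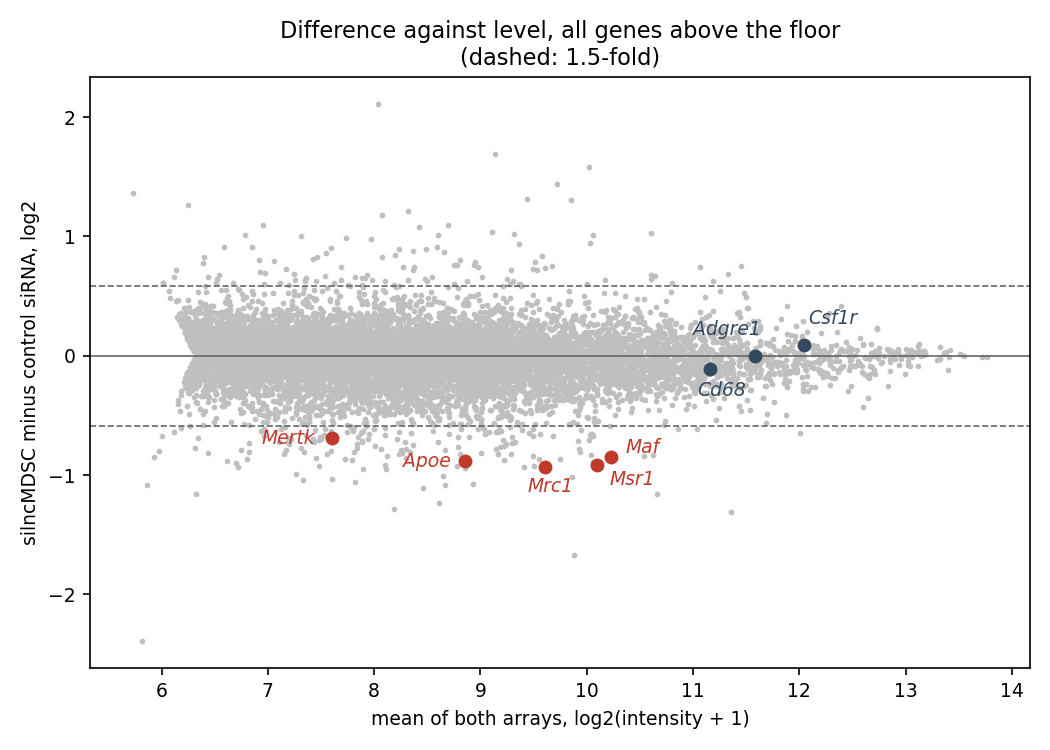
Grey points are the 11920 genes that reached the floor. The x axis is the mean of the 2 arrays, as log2(intensity + 1), and the y axis the silncMDSC minus control siRNA difference (log2). The lower group (red) runs from -0.93 for Mrc1 to -0.69 for Mertk, below the dashed 1.5-fold line, and the level genes (dark blue) from -0.11 for Cd68 to 0.09 for Csf1r.

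Since each gene's difference is a ratio within the same pair of arrays, a constant scaling factor of either array cancels when genes are compared pairwise. A scaling that varies with brightness does not cancel. Across the 15 pairs of a lower and a level gene, the lower gene was lower relative to the level gene by 1.49-fold (Mertk against Cd68) to 2.03-fold (Mrc1 against Csf1r). Such a ratio states an unequal difference on these arrays and does not show that any of the genes was unchanged. The level genes had the highest intensities of the set, and few genes that bright were lower. Of the 536 genes at least as bright as Cd68, 2 (0.373%) were at least 1.5-fold lower. How far brightness bears on the separation was not tested.

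Promoter sequence was available in the RefSeq promoter table (build GRCm38.p6) for 5 of the 9 genes, Mrc1, Apoe, Mertk, Cd68 and Cd163. The 250 bases before each start site were searched on both strands for exact matches to C/EBP (TTNCNNAA, and the palindrome TTGCGCAA), PU.1 (GAGGAAGT), MAF (TGCTGA, part of its full site), AP-1 (TGANTCA), NF-κB and the TATA box (TATAAA). C/EBP was included because lnc-C/EBPβ is named for the C/EBPβ protein, and MAF because Maf was itself in the lower group. The windows of Mrc1, from the lower group, and of Cd68, from the level group, are shown because they held all the C/EBP and AP-1 matches found outside the dim Cd163. Those matches are in capitals, and the sequence runs 5′ to 3′ along the gene.
Mrc1, chr2:14229164-14229413, plus strand: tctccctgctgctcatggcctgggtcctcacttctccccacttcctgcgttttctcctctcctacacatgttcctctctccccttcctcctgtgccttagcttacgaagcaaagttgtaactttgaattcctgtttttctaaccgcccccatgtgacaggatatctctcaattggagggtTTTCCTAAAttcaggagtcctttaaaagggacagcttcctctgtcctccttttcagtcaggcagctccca
Cd68, chr11:69666171-69666420, minus strand: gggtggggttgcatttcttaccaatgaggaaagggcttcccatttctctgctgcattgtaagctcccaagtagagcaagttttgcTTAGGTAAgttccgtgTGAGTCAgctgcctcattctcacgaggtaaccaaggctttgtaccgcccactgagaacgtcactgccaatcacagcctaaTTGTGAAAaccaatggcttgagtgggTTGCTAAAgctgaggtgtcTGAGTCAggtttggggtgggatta

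Mrc1 held 2 overlapping C/EBP matches, 70 and 69 bases before the start. Cd68 held 3 C/EBP matches, 165, 69 and 43 bases before the start, and 2 AP-1 matches, 149 and 24 bases before it, each of which reads as AP-1 on both strands. Of all 32851 windows in the table, 36.8% held the C/EBP motif, so a match is common, and 6.7% held AP-1. The window of Mertk and 2 of the 3 Apoe windows held 0 matches to any motif searched, and Cd163, with a C/EBP match at 2 overlapping positions, was the dim gene. The MAF motif was in 16.1% of all windows and in 0 of the 7 windows of these genes, and PU.1, the C/EBP palindrome and NF-κB, in 2.4%, 0.2% and 1.4% of all windows, were also in 0 of 7. The TATA box, in 12.4% of all windows, was found in 1 Apoe window. A match marks these letters in this window and nothing about binding.

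Related genes were described in 9 lists of families and pathways that these genes belong to. Over the 118 genes of these lists above the floor, outside the 9 genes, 5 (4.24%) were at least 1.5-fold lower, 3 (2.54%) at least 1.5-fold higher, and the median difference was -0.03. The remaining 110 were within 1.5-fold. Over all genes above the floor, 1.42% were lower and 0.948% higher, and these shares stand beside each list below as well. The lists were chosen with earlier results of these data known, so nothing is read from that contrast.

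Of 19 macrophage transcription factors above the floor, 1 was lower and 1 higher, with a median of -0.03. Tfec, a macrophage-restricted relative of Mitf, had 635 in silncMDSC and 1158 in control siRNA (1.82-fold lower), close to the fold of Maf, whereas Mitf differed by -0.29 on the log2 scale (-0.15 on its second probe set). Batf3, a factor of dendritic cells, had 201 in silncMDSC and 130.07 in control siRNA (1.54-fold higher), and Irf4, also used by dendritic cells, differed by 0.46. The lineage factor Spi1, which encodes PU.1, was nearly level (859 in silncMDSC, 892 in control siRNA), as was Cebpb (3001 in silncMDSC, 3337 in control siRNA).

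Scavenger receptors outside the set had a median of 0.02 over 15 genes, with 1 lower and 0 higher. Cd36, a receptor for oxidised lipoproteins and fatty acids, had 279 in silncMDSC and 591 in control siRNA (2.12-fold lower), and its second probe set differed by -1.25 on the log2 scale. Stab1, another endocytic receptor, differed by -0.51. Scarb1 (0.28), which binds high-density lipoprotein, and Cxcl16 (0.28, and 0.12 on its second probe set), which binds oxidised lipids, were on the other side. Ager differed by 0.29 but was below the floor in control siRNA. Marco, the closest relative of Msr1, was below the floor on both arrays (54.45 in silncMDSC, 54.49 in control siRNA). Of the relatives of Mrc1, only Ly75 was above the floor (0.30), and Mrc2 and Pla2r1 were below it on both arrays.

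Genes for the uptake of dead cells, the work of Mertk, had a median of -0.07 over 20 genes, with 1 lower and 1 higher. Gas6, a ligand of Mertk, had 61.7 in silncMDSC and 93.4 in control siRNA (1.51-fold lower), but the silncMDSC value was below the floor. Pros1, the other ligand, differed by 0.20. Of the sister kinases, Axl differed by 0.13 and Tyro3 was below the floor. The integrin chain Itgb3 had 232 in silncMDSC and 146 in control siRNA (1.59-fold higher), and its bridging protein Mfge8 had 1675 in silncMDSC and 1207 in control siRNA (0.47 on the log2 scale). The complement chains C1qa (-0.03), C1qb (-0.25) and C1qc (-0.23) were within 1.5-fold.

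CSF1 receptor signalling had 0 of 16 genes past 1.5-fold in either direction and a median of -0.01. Csf1, the ligand itself, differed by 0.31 (791 in silncMDSC, 638 in control siRNA), the inhibitor Socs1 by -0.52, the kinase Akt1 by -0.25 and the PI3-kinase subunit Pik3cg by 0.23 (0.36 on its second probe set). Akt1 was not read evenly, since its 3 other probe sets above the floor ran from -0.19 to 0.24.

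Apolipoproteins and cholesterol efflux had 0 of 13 genes past 1.5-fold and a median of -0.03. The apolipoprotein genes that lie beside Apoe in the genome, Apoc1 (429 in silncMDSC, 417 in control siRNA), Apoc4 (0.04) and Apoc2 (-0.08), did not share its difference. The cholesterol exporter Abca1 differed by -0.55, Lrp1, a receptor for Apoe, by -0.24, Apobr by -0.16, and the exporter Abcg1 by 0.23.

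Lysosomal proteins, the compartment of Cd68, had 1 of 13 genes lower, 0 higher and a median of -0.09. Lgmn, a lysosomal protease, had 571 in silncMDSC and 912 in control siRNA (1.60-fold lower). The glycoprotein Gpnmb differed by -0.49, with -1.07 on its second probe set, and the proteases Ctsl and Ctsb by -0.30 and -0.25. The other 4 probe sets of Ctsb above the floor ran from -0.81 to -0.17. With the mean or the next brightest of a gene's probe sets, Gpnmb joined Lgmn and 2 of these genes were lower. Lamp1 and Lamp2, relatives of Cd68, differed by -0.13 and 0.02, and the other Lamp2 probe sets ran from -0.15 to 0.06.

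Genes of haemoglobin and iron handling, the work of Cd163, had 1 of 11 lower, 0 higher and a median of -0.12. Slc11a1, a metal transporter of the phagosome, had 556 in silncMDSC and 1014 in control siRNA (1.82-fold lower). Slc11a2 differed by -0.42 but by 0.08 when read on the other usable probe set, and the transferrin receptor Tfrc by -0.30, with -0.73 and -0.08 on its other 2. The biliverdin reductase Blvrb differed by 0.26 and the haem-degrading Hmox1 by -0.16. Other macrophage surface markers had 0 of 17 lower, 1 higher and a median of -0.04. Itgax, which encodes CD11c, had 651 in silncMDSC and 412 in control siRNA (1.58-fold higher), Fcgr1 differed by -0.52, with -0.67 on its second probe set, Cx3cr1 by 0.37, though below the floor in control siRNA, and Folr2 by -0.30. With the mean or the next brightest of a gene's probe sets, Fcgr1 passed 1.5-fold and 1 of these genes was lower. Adgre4, a relative of Adgre1, differed by -0.30.

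**Figure D3:**
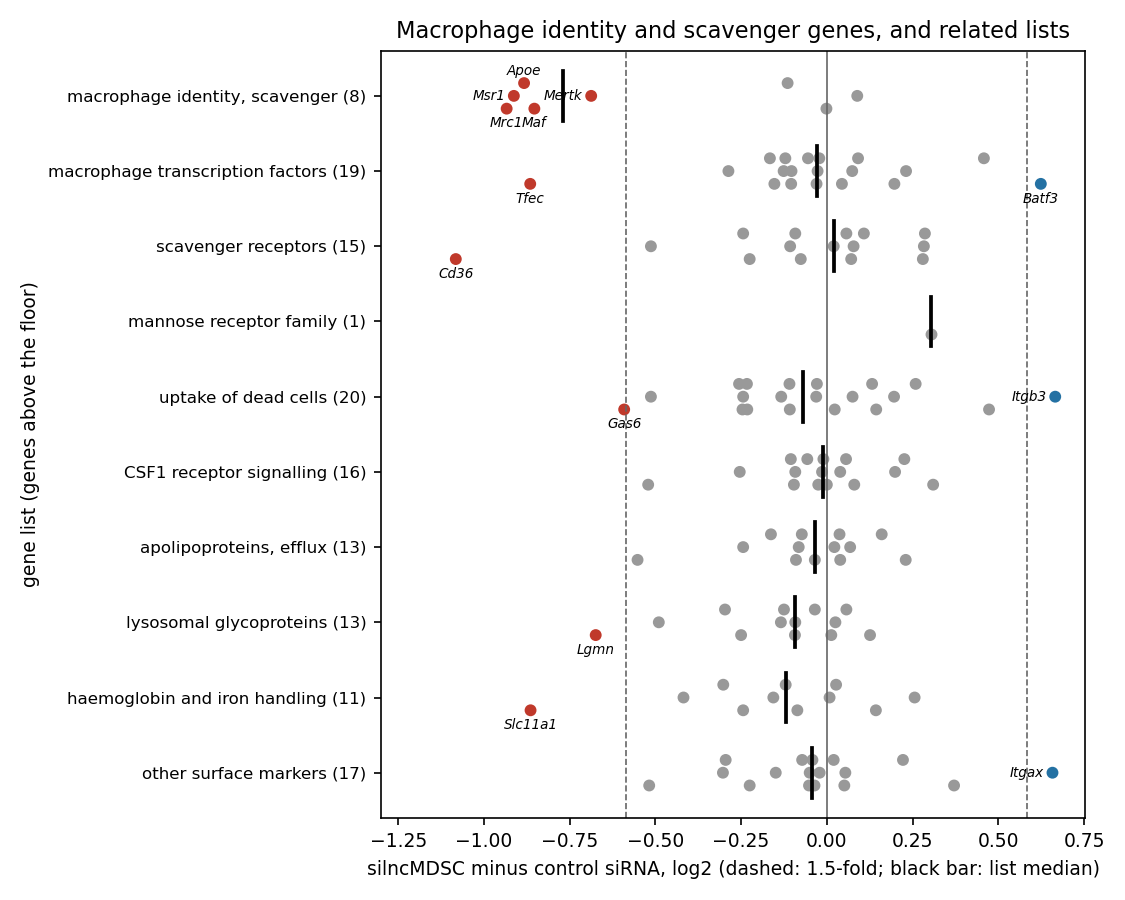
Each point is 1 gene above the floor, placed by its silncMDSC minus control siRNA difference (x axis, log2), with the 9-gene set in the top row, the related lists under it, list medians as black bars and 1.5-fold as dashed lines. The median is -0.77 in the top row, which was chosen on this difference. In the related lists it is between -0.12 and 0.02, except for the mannose receptor family, where 1 gene, Ly75, stands at 0.30. Tfec, Cd36, Gas6, Lgmn and Slc11a1 lie past the lower line in the related lists.

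The labelled cell type was checked on markers. Itgam, which encodes CD11b, had 2040 in silncMDSC and 2144 in control siRNA, and S100a9 had 13880 in silncMDSC and 13983 in control siRNA. Cd33 and Arg1 reached the floor in both cultures and Nos2 in neither. Ly6g and Ly6c2 were not analysed here. Of 10 macrophage markers read, which include genes of the set, 10 were above the floor, as were 11920 of all 18193 genes. Of 4 B cell markers read, 3 were also above it, and of 6 T and NK cell markers, 4 were. Reaching the floor thus does not show that a cell type was present.

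Markers of other cells differed alongside the lower group. Of 12 dendritic cell markers, 10 were above the floor. At least 1.5-fold higher in silncMDSC were 4 of these (H2-Eb1, Ciita, Itgax and Ccr7), beside 0.948% of all genes above the floor. Flt3 differed by 0.34, Zbtb46 by 0.14 and Cd209a by -0.11. The other 2 Ciita probe sets above the floor differed by 0.09 and 0.38. H2-Ab1 differed by 0.36 on its brightest probe set and by 0.82 and 0.87 on its others. H2-Aa differed by 0.41 on its brightest, with the others from 0.49 to 0.79, and the other Zbtb46 probe sets differed by 0.03 and 0.28. The count of 4 thus rests on the choice of probe set. Summed intensities of the 12 were 22669 in silncMDSC and 16785 in control siRNA, with H2-Aa, H2-Ab1, H2-Eb1 and Cd74 the brightest. Xcr1 and Siglech, which mark particular dendritic cell types, reached the floor on neither array. The 6 eosinophil markers read summed to 4381 in silncMDSC and 3156 in control siRNA. Of these, 4 were above the floor with a median difference of 0.46, and Ccr3 and Il5ra were below it. Monocyte markers summed to 24201 in silncMDSC and 24193 in control siRNA over 8 genes, with Chil3 and Plac8 the brightest. The single genes went both ways, 4 below 0 and 4 above it. Crip1 differed by 0.54, Ccr2 by 0.34 and Ms4a6c by -0.50, and Vcan alone passed 1.5-fold (2.01-fold lower). Neutrophil markers summed to 64790 in silncMDSC and 67268 in control siRNA over 11 genes, with 0 past 1.5-fold. Over all genes above the floor, 1.42% were lower and 0.948% higher, so nothing is read from the counts of these 2 lists. Macrophage markers summed to 15813 in silncMDSC and 17902 in control siRNA. The part of any of these cells in the lower level of Maf, Mrc1, Msr1, Mertk and Apoe was not tested.

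**Figure D4:**
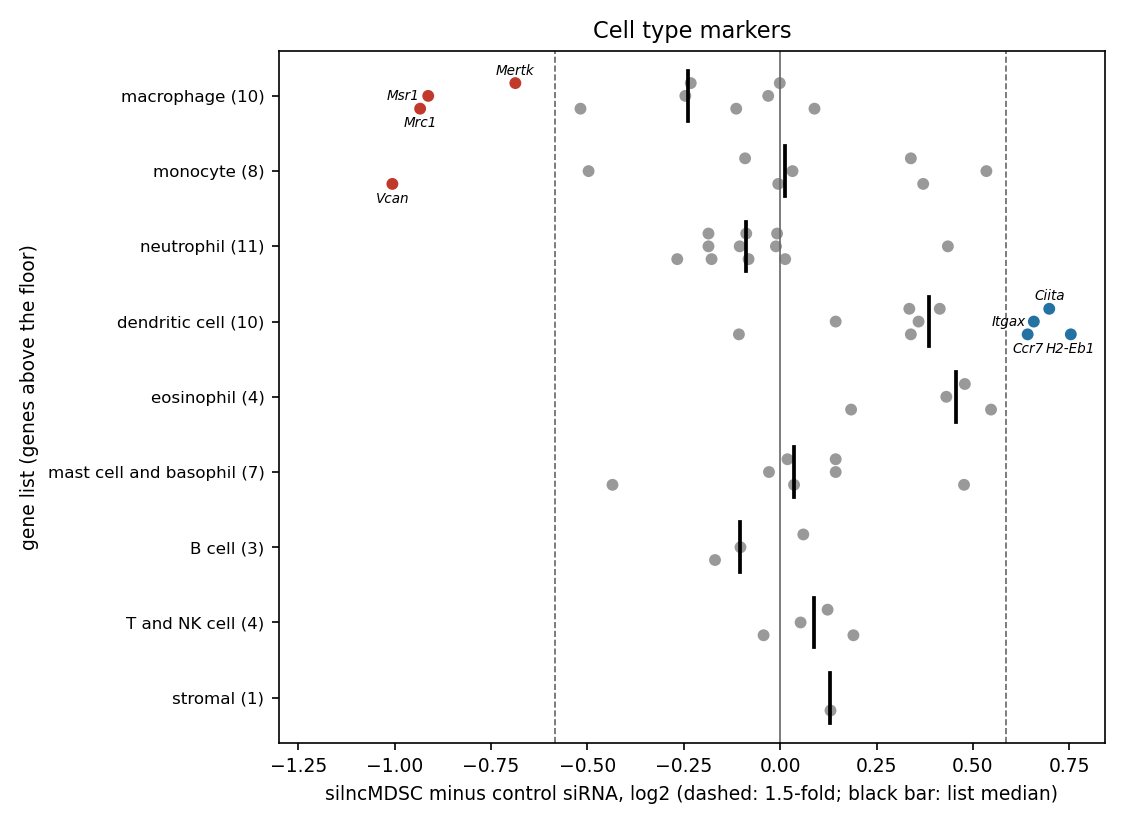
Each point is 1 cell type marker above the floor, placed by its silncMDSC minus control siRNA difference (x axis, log2), with list medians as black bars and 1.5-fold as dashed lines. Macrophage markers, which include genes of the set, have a median of -0.24, while dendritic cell and eosinophil markers have medians of 0.39 and 0.46.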

How the data were processed

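The values deposited by the authors were linear probe set intensities, 1 column per array, and the submitters' processing notes name RMA without a version. RMA usually gives log2 values, whereas these were linear with a lowest value of 1, and how they came to be so is not known here. The median intensity was 79.0 for silncMDSC and 77.9 for control siRNA. The number of arrays limits the precision.

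Control probe sets (64) were set apart. Genes were named from the 34945 probe sets with 1 symbol in the platform annotation, of which 34741 were found by Entrez identifier in a RefSeq table (GRCm38.p6). A gene was read from its brightest probe set. Differences are log2(intensity + 1), silncMDSC minus control siRNA, which understates the folds of dim genes. The limma test named in the methods could not be fitted to 1 array per group. No such test was run.

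All 9 genes were named with every probe set, and of each related list the up to 4 genes farthest from control, any gene 1.5-fold apart and close relatives of the 9 genes. Others named were chosen after their values were seen. The genes and lists were chosen with earlier results of these data known. The calculation was run on simulated data with noise set below the robust SD of these arrays. None of the planted folds lay in the range of the lower group. The run checks the code and not the calls made on unreplicated arrays. Alternatives changed the centring, level trend (loess span 0.3), quantile normalization, pseudocount (16), floor, choice of probe sets and threshold. Python 3.11.15, pandas 2.3.3, numpy 2.4.6 and statsmodels 0.14.6 were used.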

Additional observations from a re-analysis of the deposited data

How the results depend on the processing

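No paired analysis was possible because each group had 1 array, and for the same reason no replicate could be left out. With a threshold of 2-fold in place of 1.5-fold, 0 of the 8 genes were lower, since the largest fold was 1.91. The count of 5 lower genes stayed under the other settings except with the mean of all probe sets, where it was 4 because Maf, whose dim probe sets then count equally, was at -0.52. No gene of the set was at least 1.5-fold higher under any setting. The median difference ran from -0.77 to -0.61. Mrc1 ran from -0.93 to -0.89, Apoe from -0.88 to -0.84, Mertk from -0.69 to -0.64, Msr1 from -0.91 to -0.72, Adgre1 from -0.001 to 0.03, Cd68 from -0.11 to -0.08 and Csf1r from 0.09 to 0.14. Mrc1, Apoe, Mertk, Adgre1 and Cd68 had 1 probe set each, so the settings for the floor and the choice of probe sets could not move their values. Of 384 recomputed values, related lists included, 366 moved by less than the robust SD of all genes (0.176) or, for counts, stayed within 1.5 times, 18 moved by more and 0 changed the sign of a lower gene. Among related genes, Gas6 was no longer counted as lower with a pseudocount of 16, under either stricter floor, or with the mean or the next brightest of its probe sets. Itgb3 was not counted as higher under these last 2 settings, which raised the count of lower lysosomal genes to 2 (Gpnmb) and of lower surface markers to 1 (Fcgr1), and Batf3 was not counted as higher with a pseudocount of 16 or the floor at the 75th percentile. Dim probe sets, near the floor of 78.4, limit what can be read for Cd163, Gas6, Ager and Cx3cr1.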

Other observations

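The genes next to the lower group in the genome were looked at after their values were seen, since Apoe lies in a cluster of apolipoprotein genes. Of the 10 protein-coding genes directly beside Maf, Mrc1, Msr1, Mertk and Apoe in RefSeq order, 6 were above the floor. Of these, 1 was at least 1.5-fold lower, beside 1.42% of all genes above the floor, and nothing is read from 1 gene. That gene was Tomm40, which encodes the import channel of the outer mitochondrial membrane and lies beside Apoe, with 243 in silncMDSC and 401 in control siRNA (-0.72 on the log2 scale). Apoc1, on the other side of Apoe, differed by 0.04. The neighbours of Mertk, Anapc1 (-0.06) and Tmem87b (-0.09), of Msr1, Tusc3 (-0.15), and of Mrc1, Slc39a12 (0.06), were near level, and both neighbours of Maf were below the floor.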
